A study of Rattus norvegicus with 6 samples.

Results

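The MAP kinase phosphatases, Sprouty and Spred genes encode proteins that limit signalling from growth factor receptors through Ras and the mitogen-activated protein (MAP) kinases. The set comprised 10 rat genes, Dusp1, Dusp4, Dusp5, Dusp6, Dusp10, Spry1, Spry2, Spry4, Spred1 and Spred2, chosen by name. In the deposited mRNA table of 20734 transcripts, 9 of the 10 were found through their RefSeq accessions, each with 1 probe. Spry1 had no entry under its RefSeq accessions and is not analysed here. RNA came from ventricular myocytes isolated from newborn Sprague-Dawley rats aged 1 to 3 days and was hybridised to 6 one-colour arrays. In 3 samples the cells were left untreated, and in the other 3 they received 10 µM isoproterenol, a synthetic agonist of beta-adrenergic receptors that is widely used to make cultured cardiomyocytes hypertrophic, for 24 h. Cells of both groups had been depleted of fibroblasts by a preplating step and kept in medium without serum before treatment. The labels also mention passaged cells, and the series text mentions transfection, although the protocol describes primary myocytes. Replicates are called biological in the series text, but nothing says that they came from separate litters or cultures, and the p-values below therefore reflect variation among 6 arrays that may be technical.

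Signalling by growth factors passes from a receptor tyrosine kinase through Ras and Raf to MEK and then to the kinases ERK1 and ERK2, while stress signals run in parallel through JNK and p38. Dual-specificity phosphatases of the MAP kinase class remove the activating phosphates from these kinases, and many of their genes are themselves transcribed in response to the kinases they inactivate. Sprouty and Spred proteins act further up, between the receptor and Raf. In cardiomyocytes, beta-adrenergic agonists raise cyclic AMP and also engage the MAP kinases, and these phosphatases have been studied as brakes on hypertrophic growth.

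The stretches before the transcription starts of Dusp1, Dusp5 and Dusp6 are shown because Dusp6 had the largest rise among the members, Dusp5 was the member that was lower on every treated array, and Dusp1 was the member whose start held a full cAMP response element. Sequences are the 250 bases upstream of the start from RefSeq, build GRCr8, given 5′ to 3′ on the gene's own strand. They lie at chr10:17184603-17184852 for Dusp1, chr1:262543524-262543773 for Dusp5 and chr7:35979354-35979603 for Dusp6, all on the plus strand. Capitals mark matches to the motifs searched.
Dusp1: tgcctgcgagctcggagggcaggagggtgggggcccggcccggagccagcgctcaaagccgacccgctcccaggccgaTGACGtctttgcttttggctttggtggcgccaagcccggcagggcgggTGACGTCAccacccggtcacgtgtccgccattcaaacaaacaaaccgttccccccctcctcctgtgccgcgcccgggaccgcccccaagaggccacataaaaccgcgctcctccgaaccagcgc
Dusp5: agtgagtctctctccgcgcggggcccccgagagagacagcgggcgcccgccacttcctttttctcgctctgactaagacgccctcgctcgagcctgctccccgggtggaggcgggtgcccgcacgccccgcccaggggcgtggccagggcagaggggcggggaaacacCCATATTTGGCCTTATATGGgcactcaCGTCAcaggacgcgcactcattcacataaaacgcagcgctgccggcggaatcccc
Dusp6: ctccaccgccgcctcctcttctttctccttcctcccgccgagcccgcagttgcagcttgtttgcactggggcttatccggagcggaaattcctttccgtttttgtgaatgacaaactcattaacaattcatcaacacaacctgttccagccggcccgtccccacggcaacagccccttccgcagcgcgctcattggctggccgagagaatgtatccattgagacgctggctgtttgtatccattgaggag
Both strands were searched for the cAMP response element TGACGTCA, its shorter core TGACG, the AP-1 site TGACTCA, the ETS core CCGGAA and the CArG box bound by serum response factor. The core lies within the full element on both strands, so a full element also counts as cores. The Dusp1 stretch held the full element 124 bases before the start, a motif found in 1.59% of the 33469 RefSeq promoters searched over the same length. A further core lay 172 bases before the Dusp1 start, and cores were found in 18.2% of all promoters. In Dusp5, CArG boxes began 82 and 72 bases before the start, beside a core at 55 bases, and 1.5% of all promoters held a CArG box. None of the 5 motifs was found in the Dusp6 stretch. RefSeq entries were found for 9 of the 10 members, all but Dusp4. Spry2 had 2 starts: the stretch before 1 of them held a TGACG core and an ETS core, and that before the other had no match. Of the remaining members, Spry4 had an ETS core and Spred2 a TGACG core, and Spred1, Dusp10 and Spry1 had no match. ETS cores were present in 12.6% of all promoters and AP-1 sites, which no member held, in 4.05%. A match describes letters in this window and says nothing of binding in these cells.

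After 24 h of isoproterenol 3 of the 9 measured members were higher than in untreated cells: Dusp6, Dusp1 and Spry4, each by a little over 1 on the log2 scale. No member was lower past limma's adjusted threshold, 1 was lower at an unadjusted p under 0.05, and 6 of the 9 did not pass. The share of members higher, 33.3%, stands beside 10.2% of all 19936 genes tested, of which 2024 were higher, 1249 were lower (6.27%) and 3273 changed in either direction (16.4%). The test was limma's moderated test over all genes, two-sided, with Benjamini-Hochberg adjustment and a threshold of 0.05. All levels below are log2 signals relative to the 75th percentile of the array, so a negative level means a signal below that percentile. Changes are isoproterenol minus control on the same log2 scale, each with its model standard error (SE) and 3 samples a group. Over the 9 members the median change was 0.71, and over all genes it was 0.05. In these bulk samples a change in RNA per cell and a change in the mix of cells cannot be told apart.

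The isoproterenol arrays did not share 1 scan date, and this touches every member. Slides were told apart by the scan date in the file headers, which is taken here to stand for the slide. Controls 1 to 3 and isoproterenol 1 shared 1 date and are called slide 1. Isoproterenol 2 and 3 shared another and are called slide 2. On slide 1 between 97.7% and 99.8% of mRNA probes were well above background, against 61.3% and 70.9% on slide 2. Negative-control spots read between 27 and 30 on slide 1 and 87 and 84 on slide 2, and the 75th percentile was between 514 and 562 on slide 1 and 198 and 240 on slide 2. Fitting slide as a block gives the same change as slide 1 alone, which sets 1 treated array against 3 controls and assumes that it varies as they do; this value is given for each member. With slide as a block 1428 genes changed (7.16%), and on slide 1 alone 1042 changed (5.23%). In both fits 0 of the 9 members passed limma's adjusted threshold. At an unadjusted p under 0.05 the block called 4 of the 9 members against 26.1% of all genes, slide 1 alone 3 against 29% of all genes, a similar share, and the fit over all 6 arrays 6 against 36%.

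**Figure D1:**
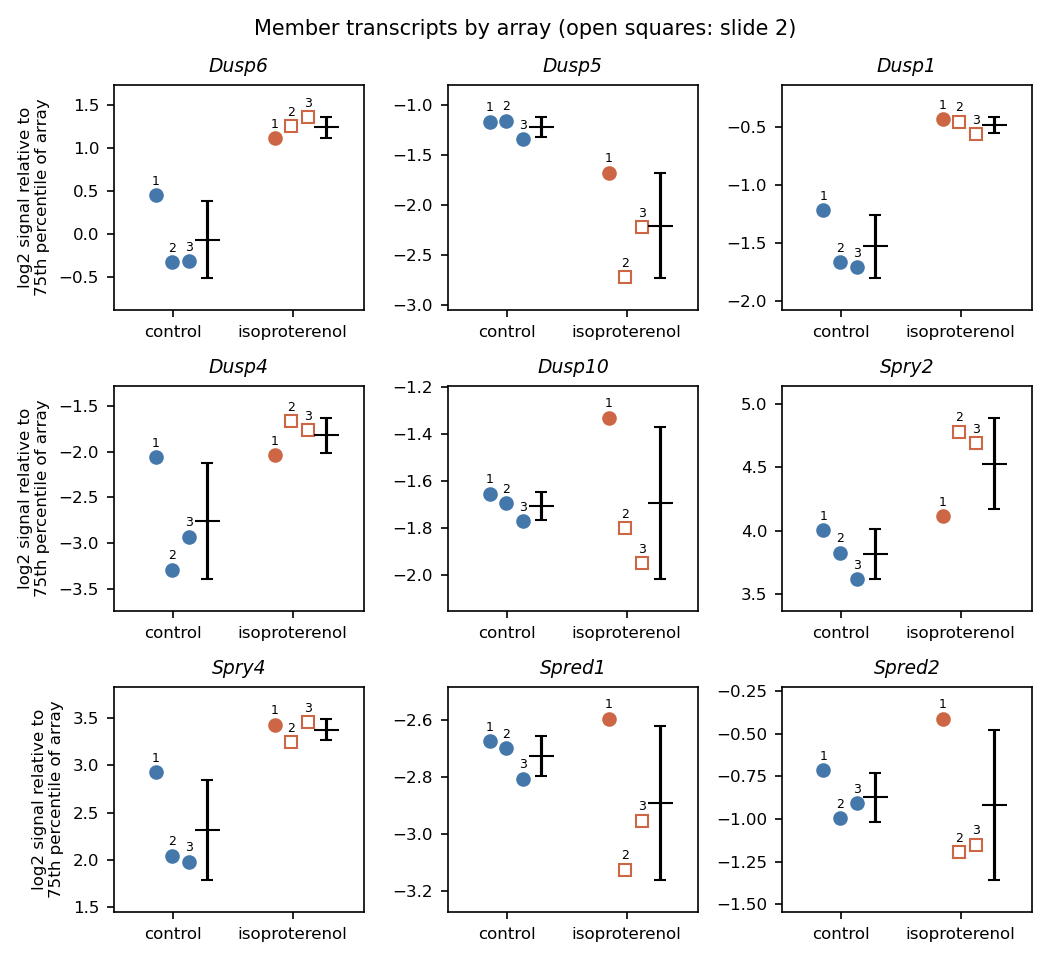
Level of each member transcript by array, as log2 signal relative to the 75th percentile of that array, for 3 control and 3 isoproterenol samples. Numbers are replicates, filled circles are slide 1, open squares are slide 2, and bars give the mean and SD of each group. Dusp6, Dusp1 and Spry4 sit higher on all 3 isoproterenol arrays than on any control, and in Dusp10, Spred1 and Spred2 the treated array of slide 1 lies above all controls while those of slide 2 lie below them.

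Dusp6 and Dusp5 encode phosphatases that act mainly on ERK, Dusp6 in the cytoplasm and Dusp5 in the nucleus, and their transcripts had opposite signs. Dusp6 read 0.45, −0.34 and −0.32 on control arrays 1 to 3 and 1.11, 1.25 and 1.35 on isoproterenol arrays 1 to 3. All treated arrays were above all controls, and control 1 was the highest control. Dusp6 rose by 1.31 ± 0.25 (SE; limma adjusted p = 0.0190), a 2.47-fold rise with a 95% interval of the log2 change from 0.71 to 1.90. On slide 1 the change was 1.18 with an adjusted p of 0.130, and 0.102 with slide as a block.

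For Dusp5 the controls read −1.16, −1.15 and −1.34, and the treated arrays −1.67, −2.72 and −2.22. Each treated array was below each control, and the pair on slide 2 was the lowest. The change was −0.99 ± 0.28 with a limma adjusted p of 0.0550, just outside the threshold. Its processed signals were 230, 245 and 206 scanner units on the controls and 176, 30.0 and 51.7 with isoproterenol, and isoproterenol 2 was not well above background. The size of this difference moved with the processing: it was −0.46 on slide 1 and −0.34 after normexp background correction. Dusp5 passed the threshold without isoproterenol 1, at −1.25 with a limma adjusted p of 0.00385. In that fit 10342 of all 19936 genes passed, and all treated arrays left were on slide 2, so treatment and slide cannot be told apart. It also passed at −1.20 (adjusted p = 0.0461) when the 75th percentile was taken over probes detected on all arrays.

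Dusp1, Dusp4 and Dusp10 encode phosphatases of wider range: Dusp1 is an immediate early gene whose product acts on p38, JNK and ERK, Dusp4 encodes a nuclear phosphatase of ERK and JNK, and the Dusp10 product favours JNK and p38. Dusp1 read −1.21, −1.66 and −1.71 in controls and −0.43, −0.45 and −0.56 with isoproterenol. The treated arrays of both slides lay close together, and all were above every control. Dusp1 rose by 1.05 ± 0.19 (SE; limma adjusted p = 0.0165), or 2.07-fold. Slide 1 alone gave 1.10, with an adjusted p of 0.0765 there and 0.0560 with slide as a block. Before scaling, the Dusp1 signal was 222, 173 and 159 on the controls, 418 on isoproterenol 1, and 145 and 163 on isoproterenol 2 and 3. On slide 2 the rise is therefore one relative to the other probes of those dimmer arrays, not a brighter spot. For Dusp6 the unscaled signals were 700, 432 and 416 on the controls and 1210, 470 and 613 with isoproterenol, and for Spry4 they were 3908, 2249 and 2049 against 6045, 1873 and 2627. On slide 1 the treated array was thus the brightest for all of Dusp1, Dusp6 and Spry4 before any scaling. The same held for every other member except Dusp5, so it does not set these genes apart. Dusp10, for example, read 223 on isoproterenol 1 and at most 168 on the controls, and Spred2 422 and at most 313. Isoproterenol 1 also had the highest 75th percentile of slide 1, at 562 against 514, 546 and 519 on the controls.

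Dusp4 read −2.06, −3.29 and −2.93 in controls and −2.04, −1.66 and −1.77 with isoproterenol. The groups did not overlap, but control 1 came close to isoproterenol 1. Dusp4 differed by 0.94 ± 0.33 and missed the threshold (limma adjusted p = 0.0917). Without control 1 it rose by 1.29 with an adjusted p of 0.0350, and slide 1 alone gave 0.72.

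In Dusp10 the controls read −1.66, −1.70 and −1.77, and the treated arrays −1.33, −1.80 and −1.95. Isoproterenol 1 was above all controls and the slide 2 arrays below all of them, so the groups overlapped. The change was 0.01 ± 0.21 with a 95% interval from −0.48 to 0.50 (limma adjusted p = 0.971), and 0.38 on slide 1. A change of up to 0.50 in either direction is thus not distinguished from none by these arrays.

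Spry2 and Spry4 encode Sprouty proteins, induced feedback inhibitors that hold back Ras and Raf activation below receptor tyrosine kinases. Spry4 read 2.93, 2.04 and 1.98 in controls and 3.43, 3.24 and 3.45 with isoproterenol. Every treated array was above every control, and control 1 lay between the other controls and the treated arrays. Spry4 rose by 1.06 ± 0.28 (SE; limma adjusted p = 0.0471), or 2.08-fold, with a 95% interval from 0.39 to 1.72. Slide 1 alone gave 1.11 with an adjusted p of 0.178, and 0.157 with slide as a block. The call lay at the edge of the threshold and was lost under normexp (0.84, adjusted p = 0.0782), under quantile normalization (0.87, 0.112) and with a 75th percentile over probes detected on all arrays (0.84, 0.0965). From the authors' deposited values the change was 0.87 (limma adjusted p = 0.106).

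Spry2 read 4.00, 3.83 and 3.62 in controls and 4.12, 4.78 and 4.69 with isoproterenol. The treated arrays were all higher, but isoproterenol 1 was only a little above control 1. The difference was 0.71 ± 0.23 with a limma adjusted p of 0.0784, and only 0.30 on slide 1. Without isoproterenol 1 Spry2 rose by 0.92 with an adjusted p of 0.00573. In that fit 10342 of all 19936 genes passed, and all treated arrays left were on slide 2, so treatment and slide cannot be told apart.

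Spred1 and Spred2 encode Spred proteins, relatives of Sprouty that bring the Ras inactivator neurofibromin to the membrane. Spred1 read −2.67, −2.70 and −2.81 in controls and −2.60, −3.13 and −2.95 with isoproterenol, where isoproterenol 2 was not well above background. Spred2 read −0.71, −0.99 and −0.91 in controls and −0.41, −1.19 and −1.15 with isoproterenol. Both genes shared the arrangement of Dusp10: the treated array of slide 1 was the highest of all 6 and those of slide 2 were the lowest. Spred1 changed by −0.17 ± 0.19 (95% interval −0.62 to 0.29) and Spred2 by −0.05 ± 0.25 (−0.64 to 0.55), with limma adjusted p-values of 0.554 and 0.905. On slide 1 the values were 0.13 for Spred1 and 0.46 for Spred2. Neither Spred gene passed the threshold under any of the alternatives computed, and the sign of both depended on the setting.

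Across the members the groups did not overlap in 6 of 9 genes (66.7%), 5 with isoproterenol higher and 1 lower. Among all genes tested 8253 (41.4%) had groups that did not overlap, 5004 higher (25.1%) and 3249 lower (16.3%). Leaving out single arrays changed the 3 calls. Without control 2, control 3, isoproterenol 2 or isoproterenol 3 none of Dusp1, Dusp6 and Spry4 passed limma's adjusted threshold: changes were between 0.96 and 1.09 for Dusp1, 1.17 and 1.30 for Dusp6, and 0.89 and 1.12 for Spry4. At an unadjusted p under 0.05 each of these fits called 4 of the 9 members, beside 24.9%, 24.1%, 27.1% and 25.4% of all genes in the same order. Where only probes detected on all arrays were tested, 5 of the 7 members left passed the adjusted threshold, beside 34.8% of the 12316 genes left. Slide 2, the dimmer one, held treated arrays only, so this filter favours genes that are bright with isoproterenol, and it removes Dusp5 and Spred1. Of the genes left 3047 were higher and 1235 lower, with a median change of 0.18. Over all genes these were 2024, 1249 and 0.05. The additional calls are therefore not independent of the filter. Dusp1, Dusp6 and Spry4 passed without control 1, together with Dusp4, and without isoproterenol 1, together with Dusp5 and Spry2. In these fits 1485 and 10342 of all 19936 genes passed, in that order.

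**Figure D2:**
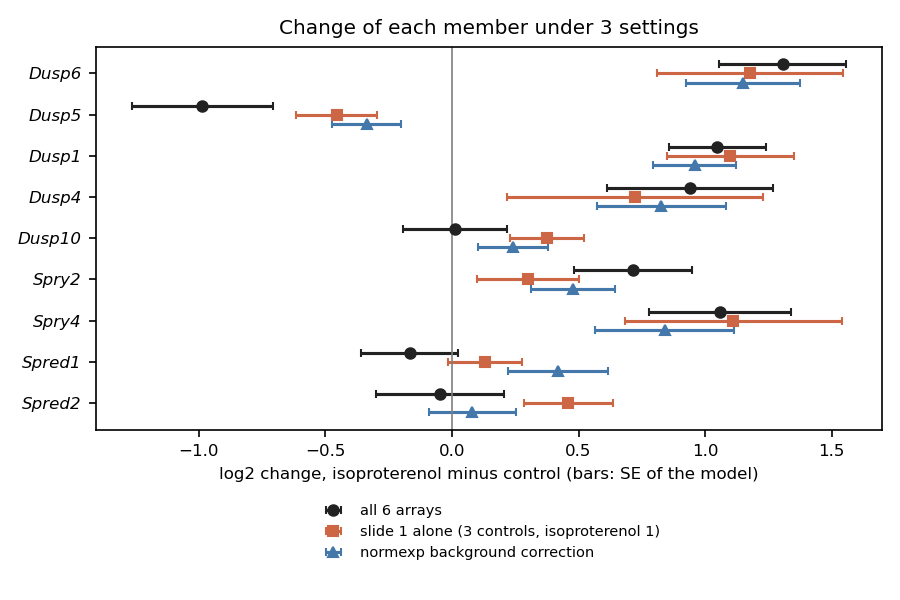
Log2 change of each member, isoproterenol minus control, from all 6 arrays, from slide 1 alone and after normexp background correction, with the SE of the model as bars. Dusp6, Dusp1 and Spry4 stay between 0.84 and 1.31 in all 3 settings, whereas Dusp5 moves from −0.99 to −0.46 and −0.34.

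Control 1 carried more of these transcripts than the other controls. It was the highest control for 8 of 9 members (88.9%), all but Dusp5, against 8076 of the 19936 genes tested (40.5%). Its excess over the mean of controls 2 and 3 was 1.05 for Dusp4, 0.91 for Spry4, 0.77 for Dusp6 and 0.47 for Dusp1 on the log2 scale. It was 0.28 for Spry2, 0.24 for Spred2 and 0.08 for each of Dusp5, Spred1 and Dusp10. The median excess was 0.28 over the members and 0.01 over all genes. The members with the largest excess in control 1, Dusp4, Spry4, Dusp6 and Dusp1, were also the 4 with the largest positive changes after isoproterenol, though both values use the control arrays. Among transcripts often read as ERK output control 1 was the highest control for 17 of 19 (89.5%), with a median excess of 0.36 and an excess of 1.64 for Hbegf. Control 1 was the highest control for 5 of 6 of the other phosphatase and Sprouty genes, 7 of 12 other negative regulators (and the lowest for the remaining 5), 9 of 25 in the Ras to ERK cascade and 4 of 21 in the JNK and p38 cascades. What set control 1 apart was not tested.

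**Figure D3:**
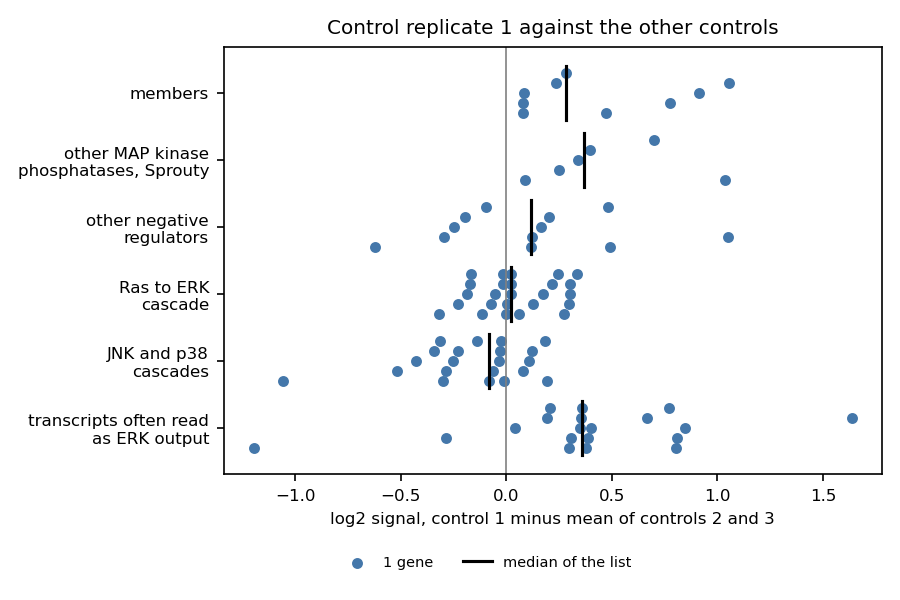
Log2 signal of control 1 minus the mean of controls 2 and 3, with 1 point per gene and a bar at the median of each list. Members and transcripts often read as ERK output lie mostly to the right of 0, with medians of 0.28 and 0.36, and the JNK and p38 cascades lie mostly to the left.

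Further genes of the same families were also higher where they passed. Of 7 other MAP kinase phosphatases and Sprouty or Spred homologues 6 were tested, and 3 were higher and 0 lower, with a median change of 1.04. Of all genes 10.2% were higher and 6.27% lower. At an unadjusted p under 0.05 limma called 5 of the 6 higher and 0 lower, beside 4389 higher and 2779 lower of all 19936 genes. Dusp9, which encodes a cytoplasmic ERK phosphatase, read −2.09, −2.41 and −2.57 in controls and −0.57, −0.02 and −0.06 with isoproterenol, with no overlap. It rose by 2.14 ± 0.23 (limma adjusted p = 0.00462), or 4.39-fold, and by 1.78 on slide 1, where it also passed (adjusted p = 0.0368). Dusp2, an inducible nuclear phosphatase, rose by 1.26 ± 0.22 (adjusted p = 0.0149) and by 1.66 on slide 1 (adjusted p = 0.0328). Dusp16, a phosphatase of JNK and p38, rose by 0.81 ± 0.20 (adjusted p = 0.0369) but did not pass on slide 1 (0.60, adjusted p = 0.163) or under normexp (0.88, adjusted p = 0.0776). Dusp2 and Dusp16 were each well above background on 2 of the 3 isoproterenol arrays. With slide as a block, 2 of the 6 genes passed, and their median change was 0.85.

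Other negative regulators of receptor and Ras signalling, such as GTPase-activating proteins and Cbl ligases, held a single call. Of 15 listed genes 12 were tested, and 1 was higher and 0 lower, beside 16.4% of all genes changed, with a median change of 0.34. Limma's unadjusted p was under 0.05 for 6 of the 12, 4 higher and 2 lower, beside 36% of all genes. The gene that passed was Pea15, which encodes a protein that binds ERK and keeps it in the cytoplasm. It rose by 1.08 ± 0.20 (limma adjusted p = 0.0173) and by 1.15 on slide 1 (adjusted p = 0.0776).

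Components of the pathway that the members restrain held calls in both directions, at about the share of all genes past the adjusted threshold. In the Ras to ERK cascade 25 of 27 genes were tested, with 2 higher, 2 lower and a median change of 0.21. These 4 of 25 stand beside 16.4% of all genes changed, a similar share. At an unadjusted limma p under 0.05 the share was larger than over all genes: 13 of 25, 8 higher and 5 lower, beside 36%. Map2k1, which encodes the ERK kinase MEK1, rose by 1.17 ± 0.19 (limma adjusted p = 0.0128). Rap1a, a Ras-related GTPase, fell at −0.83 ± 0.22 (adjusted p = 0.0443), and the docking protein gene Gab1 at −0.76 ± 0.19 (adjusted p = 0.0392). Slide 1 gave 0.87, −0.48 and −0.48 for Map2k1, Rap1a and Gab1, none of these past the threshold there, and Gab1 was at 0.02 under normexp.

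In the JNK and p38 cascades all 21 genes were tested, with 1 higher, 3 lower and a median change of −0.08. These 4 of 21 are also near the 16.4% of all genes changed. At an unadjusted limma p under 0.05 there were 5 of 21, 2 higher and 3 lower, beside 36% of all genes. Jun, the transcription factor gene after whose product JNK is named, rose by 1.27 ± 0.21 (limma adjusted p = 0.0123) and by 1.02 on slide 1. Map3k5, which encodes the stress kinase ASK1, fell at −1.37 ± 0.35 (adjusted p = 0.0437). Mapk12, a p38 isoform, fell at −1.07 ± 0.22 (adjusted p = 0.0222), and Map2k6, a p38 kinase, at −1.05 ± 0.23 (adjusted p = 0.0266). On slide 1 these were −0.59, −0.66 and −1.17, and under normexp −0.56, −0.09 and −0.31. Map3k5 and Mapk12 were well above background on 1 isoproterenol array only.

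Transcripts often read as ERK output held the largest rises. Of 20 listed genes 19 were tested, and 9 were higher and 0 lower, with a median change of 0.94. Of all genes 10.2% were higher and 6.27% lower. At an unadjusted limma p under 0.05 there were 10 higher and 2 lower, beside 4389 higher and 2779 lower of all 19936 genes. Hbegf, which encodes a growth factor of the EGF family, read 0.22, −1.57 and −1.28 in controls and 2.25, 2.95 and 2.67 with isoproterenol. It rose by 3.50 ± 0.47 (limma adjusted p = 0.00793), and by 3.12 on slide 1 (adjusted p = 0.0828). Ccnd1, the cyclin D1 gene, rose by 2.29 ± 0.32 (adjusted p = 0.00860), Plaur, the urokinase receptor gene, by 2.25 ± 0.23 (adjusted p = 0.00448), and Ier3, an immediate early gene, by 2.23 ± 0.34 (adjusted p = 0.0103). On slide 1 these were 1.78, 1.84 and 1.48, of which Plaur (adjusted p = 0.0334) and Ier3 (adjusted p = 0.0444) passed. In this list 6 genes passed with slide as a block and 3 on slide 1 alone. All lists share the same 6 arrays, and no list was tested as a set.

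**Figure D4:**
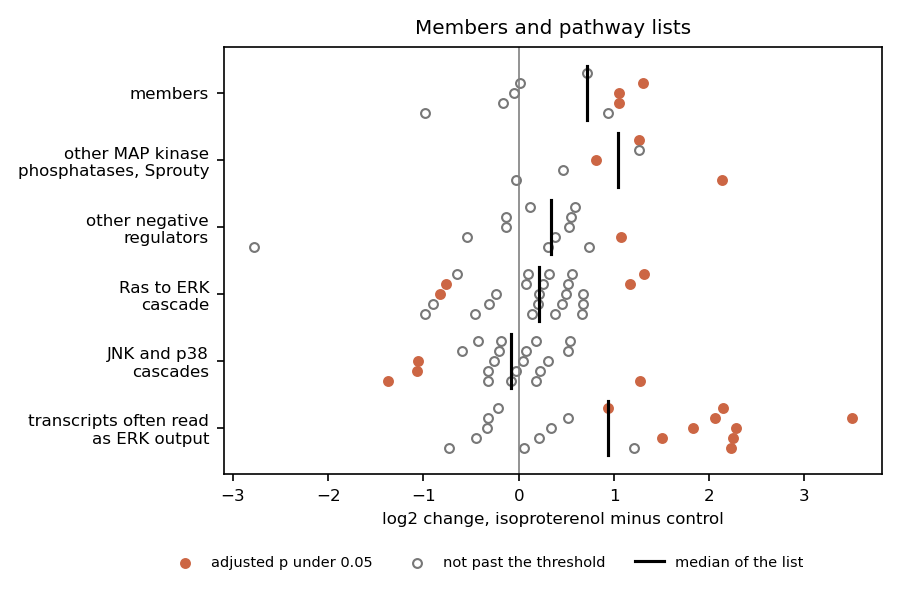
Log2 change of each tested gene, isoproterenol minus control, for the members and 5 pathway lists, with filled points for limma adjusted p under 0.05 and a bar at the median. Medians are 0.71 for the members, 1.04 for the other phosphatases and Sprouty genes and 0.94 for ERK output, and the JNK and p38 cascades sit at −0.08.

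Cell type markers were read alongside. All 11 cardiomyocyte markers tested, of 12 listed, were well above background on all 6 arrays, with 1 higher and 1 lower. Their summed level, in multiples of the 75th percentile, was 1942 to 2377 in controls and 2372 to 3829 with isoproterenol. Smooth muscle and pericyte markers summed to between 90.0 and 159 in controls and between 232 and 521 with isoproterenol, without overlap, and 2 of 7 tested were higher, Tagln and Acta2, while 0 were lower. These 2 genes carried the sum: the other 5 markers summed to between 2.99 and 3.32 in controls and between 3.14 and 3.39 with isoproterenol, which overlap, and the median change of the list was 0.16. Among those 5, Cspg4 had a change of 1.05, with groups that did not overlap (limma adjusted p = 0.0630), and Rgs5 of 0.16. Notch3, Myh11 and Pdgfrb had changes of −0.41, −0.30 and −0.18, and none of the 5 passed. Of 9 fibroblast markers tested 1 was higher and 4 were lower, beside 10.2% and 6.27% of all genes, with sums of 163 to 171 against 136 to 175. The lower ones were Lum, Postn, Col3a1 and Tcf21, with changes of −1.62, −1.34, −1.12 and −0.77, and the higher one was Thy1 (1.04). Col1a2, the brightest of the list, had a change of 0.63 without passing (limma adjusted p = 0.0712), so the sums do not show these falls. For 8 endothelial markers, of which 2 were lower, sums were 16.5 to 18.4 against 14.9 to 17.0, and for 6 macrophage markers, none of which passed, 24.6 to 32.6 against 32.2 to 49.2. At an unadjusted limma p under 0.05, 1 macrophage marker was called. The markers well above background on all 6 arrays were 8 of 9 for fibroblasts, 5 of 8 for endothelium, 6 of 7 for smooth muscle and pericytes and 5 of 6 for macrophages, and no tested marker had a signal of 0. The part of these cell types in the members' changes was not tested.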

How the data were processed

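RNA of 3 control and 3 isoproterenol samples was hybridised to one-colour Agilent arrays. The deposited scanner output, made per the file headers by Agilent Feature Extraction (version 11.0.1.1), gives background-subtracted Cy3 intensity on a linear scale at each of 43040 spots, with 0 saturated. The deposited mRNA table holds log2 values close to quantile-normalized intensities; no source used here names the tool that made it. Scanner probes carry design numbers, so the table's 20734 transcripts were matched to probes by value over the 4 arrays of slide 1 (distance at most 0.05 on the log2 scale and at most 0.25 of that to the next best probe). This placed 20633, and all 20632 neighbouring pairs followed the order of the spots. RefSeq tables (GRCr8) named 13956 of 14757 NM accessions and none of 5977 Ensembl identifiers.

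The values analysed are log2 processed signal minus the array's 75th percentile over non-control spots. Probes well above background on at least 3 arrays were tested (none was lost), a gene being its brightest probe. Groups came from the sample labels. The comparison used limma 3.58.1 in R 4.3.3 over all genes with Benjamini-Hochberg adjustment, and the code was tested on simulated data. Alternatives covered background correction, scaling, filters, slide, replicate number, array weights, the deposited table and each array left out. Normexp used median signals with an offset of 50, as the files used here carry no mean signal column. Named genes were all members and, per pathway list, up to 4 with the largest change past the threshold (with fewer than 2, the lowest adjusted p). 1 gene that this rule names is not reported here. The members, lists and tests were chosen with earlier results of these data known. The number of arrays limits the precision.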

Additional observations from a re-analysis of the deposited data

How the results depend on the processing

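Across the 19 other settings Dusp1 passed the adjusted threshold in 13 (log2 change 0.83 to 1.20), Dusp6 in 12 (1.09 to 1.56), Spry4 in 8 (0.84 to 1.36), Dusp4 and Spry2 in 3 each (0.67 to 1.29 and 0.30 to 0.96) and Dusp5 in 3 of 18 (−1.25 to −0.34); Dusp10, Spred1 and Spred2 passed in none. Not all of these settings could differ for the members. Dropping the filter on dim probes changed nothing, as no probe had been lost. Averaging a gene's probes left the members' changes as they were, since each had 1 probe. Passes in these settings repeat the fit over all 6 arrays. Quantile normalization and the deposited values were also nearly the same, with Spry4 at 0.87 in both. No called member changed sign. Counts of changed genes past the threshold are given in the order members, other phosphatases and Sprouty genes, other negative regulators, Ras to ERK, JNK and p38, ERK output, all genes; for the 6 arrays they were 3, 3, 1, 4, 4, 9 and 3273. Slide as a block gave 0, 2, 0, 1, 1, 6 and 1428, and slide 1 alone 0, 2, 0, 0, 0, 3 and 1042; at an unadjusted limma p under 0.05 slide 1 alone had 2 negative regulators, 6 Ras to ERK and 8 JNK and p38 genes. With the replicate number as a block they were 1, 2, 0, 1, 1, 5 and 1379. Deviations of same-numbered samples from their group means had correlations of 0.01, 0.05 and −0.02. With 3 arrays a group and the treated arrays split by slide, these values cannot show whether the numbers pair samples. The fit over all 6 arrays does not use the numbers as pairs. Array weights, which gave isoproterenol 1 the lowest weight, gave 6, 5, 9, 18, 7, 15 and 11521. Testing only probes detected on all arrays, which removes Dusp5 and Spred1, gave 5 of 7 members, 5 of 9 negative regulators and 9 of 20 Ras to ERK genes, beside 4282 of 12316 genes, and scaling over such probes gave 2 negative regulators. Leaving out single arrays gave 0 to 5, 1 to 5, 0 to 9, 0 to 17, 0 to 8, 2 to 12 and 366 to 10342; the highest counts came without isoproterenol 1, and a group left with 2 arrays has fewer degrees of freedom. The split of higher and lower genes was 2024 and 1249, but 2105 and 812 under normexp and 1517 and 1198 under quantile normalization. It was 3047 and 1235 where only probes detected on all arrays were tested, and 1370 and 1978 with scaling over detected probes. The median of all genes shifted from 0.05 to 0.34 under normexp and −0.17 under the last of these, so Dusp6, Dusp1 and Spry4 changes of 1.15, 0.96 and 0.84 under normexp stand against that shift. A 75th percentile over distinct probes, chosen after seeing the data, called 3 members and 3216 genes. Dim signal on slide 2 limits Dusp5 and Spred1; the cause of the changes between settings was not tested.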
